A study of Mus musculus with 8 samples.

Results

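The cell cycle and DNA replication genes of the liver were followed in mice with diet-induced steatohepatitis, as 40 genes picked by symbol from the 52030 named genes of the deposited table. All 40 were in the table. They fall into 9 genes of G1 entry (the D- and E-type cyclins, their kinases, an inhibitor and a transcription factor), 10 genes of DNA replication and nucleotide supply, and 21 genes of G2 and mitosis. The mice were wild type (WT in the labels), were kept on CDAHFD, a high-fat diet without choline and with defined amino acids that gives a fatty, inflamed and scarred liver, and had received human circulating extracellular vesicles by intravenous injection. In the group RIC_hEV, with 4 libraries, the vesicles came from volunteers after remote limb ischemic conditioning, in which blood flow to a limb is interrupted for short periods. In the group ctr_hEV, also with 4 libraries, they came from volunteers after a sham procedure. All 8 libraries thus share the diet and an injection of human vesicles, and no mice on a normal diet or without vesicles were analysed here. The labels give no age, sex, vesicle dose or time and do not say whether each library comes from its own mouse, so p-values measure the spread between these libraries, which may be technical in part.

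D-type cyclins with the kinases CDK4 and CDK6, and then cyclin E with CDK2, phosphorylate the retinoblastoma protein, which releases E2F factors and lets a cell leave G1. E2F factors act on genes of the replication machinery, such as the MCM helicase, while most genes needed for mitosis are transcribed later, in G2, through CCAAT boxes bound by NF-Y and an element called CHR. Most hepatocytes of an adult liver are not cycling, and dividing cells appear in a liver that is injured or regenerating, among hepatocytes as well as among macrophages, bile duct cells and stellate cells. In a bulk sample, fewer dividing cells and less RNA per cell cannot be told apart.

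Promoters are shown for 3 mitotic genes, Ccnb2, Cdc20 and Cdk1, and for 2 subunits of the replicative helicase, Mcm6 and Mcm5, because Ccnb2 and Cdc20 are among the mitotic genes with an unadjusted p under 0.05, Cdk1 is the kinase that Ccnb2 activates, and no replication gene had such a p. The windows run from 250 bases before to 50 bases after the annotated start (RefSeq, GRCm38.p6), in the direction of the gene, with matches on either strand in capitals. The motifs were CCAAT (the NF-Y box), TTTGAA (the CHR element) and the E2F sites TTTGGCGC, TTTCCCGC, TTTCGCGC and TTTGCCGC; overlapping matches on opposite strands were counted separately. The windows are chr9:70421505-70421804 (minus strand) for Ccnb2, chr4:118437294-118437593 (minus) for Cdc20, chr10:69352863-69353162 (minus) for Cdk1, chr1:128359656-128359955 (minus) for Mcm6 and chr8:75109259-75109558 (plus) for Mcm5.
Ccnb2: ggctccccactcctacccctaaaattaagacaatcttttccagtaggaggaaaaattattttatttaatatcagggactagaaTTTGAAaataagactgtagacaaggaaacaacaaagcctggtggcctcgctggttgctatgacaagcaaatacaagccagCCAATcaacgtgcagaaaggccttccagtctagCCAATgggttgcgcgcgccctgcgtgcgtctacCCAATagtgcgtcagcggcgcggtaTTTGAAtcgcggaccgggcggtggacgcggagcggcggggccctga
Cdc20: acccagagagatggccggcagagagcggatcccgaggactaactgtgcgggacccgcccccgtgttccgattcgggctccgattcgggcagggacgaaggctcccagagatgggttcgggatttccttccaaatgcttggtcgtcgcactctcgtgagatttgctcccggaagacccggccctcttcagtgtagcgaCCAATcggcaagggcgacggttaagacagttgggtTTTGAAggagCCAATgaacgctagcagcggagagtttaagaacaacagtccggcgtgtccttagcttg
Cdk1: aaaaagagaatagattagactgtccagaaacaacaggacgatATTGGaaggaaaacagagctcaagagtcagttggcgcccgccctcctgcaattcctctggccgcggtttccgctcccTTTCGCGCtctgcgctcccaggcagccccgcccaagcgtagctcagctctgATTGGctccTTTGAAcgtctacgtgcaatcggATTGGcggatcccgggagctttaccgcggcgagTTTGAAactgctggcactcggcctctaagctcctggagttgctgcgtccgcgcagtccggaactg
Mcm6: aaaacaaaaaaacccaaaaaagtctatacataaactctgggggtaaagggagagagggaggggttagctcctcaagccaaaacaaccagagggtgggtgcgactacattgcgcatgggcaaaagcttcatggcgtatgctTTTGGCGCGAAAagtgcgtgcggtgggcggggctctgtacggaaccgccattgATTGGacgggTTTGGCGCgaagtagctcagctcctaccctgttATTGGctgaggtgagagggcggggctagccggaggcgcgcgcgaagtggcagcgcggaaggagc
Mcm5: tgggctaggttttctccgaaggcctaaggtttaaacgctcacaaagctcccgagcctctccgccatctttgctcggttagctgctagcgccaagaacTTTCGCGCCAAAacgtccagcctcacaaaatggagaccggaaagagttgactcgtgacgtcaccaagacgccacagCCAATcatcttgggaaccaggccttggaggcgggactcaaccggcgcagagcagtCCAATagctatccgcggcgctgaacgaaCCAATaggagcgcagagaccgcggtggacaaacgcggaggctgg
The Ccnb2 window holds 3 CCAAT boxes and 2 TTTGAA elements, 1 of them close to the start, and no E2F site. The Cdc20 window holds 2 CCAAT boxes around a TTTGAA element. Cdk1 has 3 CCAAT boxes, 2 TTTGAA elements and 1 E2F site, and so carries both kinds of letters. Mcm6 has 3 E2F matches and 2 CCAAT boxes, Mcm5 has 2 E2F matches and 3 CCAAT boxes, and neither window holds TTTGAA.

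Of the 40 genes, 31 matched the promoter table, where a gene with several windows counted once; Ccnd1, Ccnd2, Ccne2, Mcm4, Ccna2, Aurkb, Foxm1, Kif20a and Tpx2 did not. TTTGAA occurred in 13 of 16 mitotic genes, in 1 of 9 replication genes and in 0 of 6 genes of G1 entry, against 20.2% of the 27025 genes of the table. An E2F site occurred in 1 of 16 mitotic genes, 4 of 9 replication genes (all of them Mcm genes) and 1 of 6 genes of G1 entry, against 2.6% of all genes. CCAAT was found in 15 of 16 mitotic genes, 8 of 9 replication genes and 2 of 6 genes of G1 entry, against 41.1%. Of the mitotic genes 81.2% held CCAAT and TTTGAA together, against 7.97% of all genes. These matches describe the letters of the windows and do not show that a factor binds there. Of the mitotic genes with an unadjusted p under 0.05, Ect2 had 2 TTTGAA elements but Ccnb1 had 0. Top2a and Mki67, without such a p, had 2 each. The promoters shown above were picked in part by p, and a link between motif and change was not tested.

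Levels are given as FPKM, a fragment count divided by transcript length in kilobases and by library size, as the authors deposited them. The depth, estimated from the FPKM worth of 1 fragment, was 19200000 to 28600000 fragments in RIC_hEV and 23700000 to 28800000 in ctr_hEV. Most cell cycle genes were low in these livers. Only Ccnd1, Pcna and Cdk4 averaged at least 10 FPKM over the 8 libraries, and 10 genes averaged under 1 FPKM, 9 of them mitotic. Mki67, the proliferation antigen Ki-67, lay between 0.116 and 0.455 FPKM, and the spindle checkpoint kinase Bub1 lay between 0.0171 and 0.282 FPKM, where the lowest value rests on about 1 fragment. None of the 40 was at 0 in any library. The highest library exceeded the lowest by a median of 2.79-fold, so single libraries weigh on every comparison. The library ctr_hEV 1 was the highest of all 8 in 27 of the 40 genes, while RIC_hEV 2 and ctr_hEV 4 were each the lowest in 13. These ranks use FPKM as deposited, not centred by library, and the same shares over all genes were not counted.

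Liver markers were high throughout, with Alb at 16910 FPKM or more in every library. The 6 hepatocyte markers summed to 29420 to 35610 FPKM in RIC_hEV and 25150 to 38180 in ctr_hEV. All 6 lay above the median tested gene in their change. Of these, 2 were higher at an unadjusted p under 0.05, against 2.64% of all tested genes. These were Tat, at 1088 to 1345 FPKM in RIC_hEV and 461 to 1117 in ctr_hEV, and Apoa1, at 5869 to 6568 in RIC_hEV and 4942 to 5493 in ctr_hEV. Markers of several other cell types were highest in single ctr_hEV libraries. The summed FPKM of 5 bile duct markers was 20.2 to 39.0 in RIC_hEV and 26.3 to 146 in ctr_hEV, and that of 6 stellate cell and myofibroblast markers 36.4 to 58.6 in RIC_hEV and 36.6 to 150.3 in ctr_hEV, with ctr_hEV 1 and ctr_hEV 3 the 2 highest libraries for both. The 8 macrophage markers summed to 418 to 654 FPKM in RIC_hEV and 548 to 1059 in ctr_hEV, again highest in ctr_hEV 1. T cell markers (5.19 to 9.04 in RIC_hEV, 4.20 to 8.42 in ctr_hEV) and endothelial markers (50.8 to 60.1 in RIC_hEV, 46.8 to 53.6 in ctr_hEV) had overlapping ranges. The 6 B and plasma cell markers summed to 4.32 to 5.29 FPKM in RIC_hEV and 2.41 to 3.65 in ctr_hEV, without overlap, and the 5 erythroid markers to 65.2 to 74.8 in RIC_hEV and 39.2 to 257.8 in ctr_hEV. Among the other sets, an unadjusted p under 0.05 (limma) was reached by 3 of 3 tested neutrophil and 2 of 4 tested bile duct markers. It was also reached by 1 of 4 tested erythroid and 1 of 1 tested B and plasma cell markers, and by 0 in the remaining sets. These counts take both directions, against 11.4% of all tested genes as lower and 2.64% as higher. The part of these cells in the results below was not tested.

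**Figure D1:**
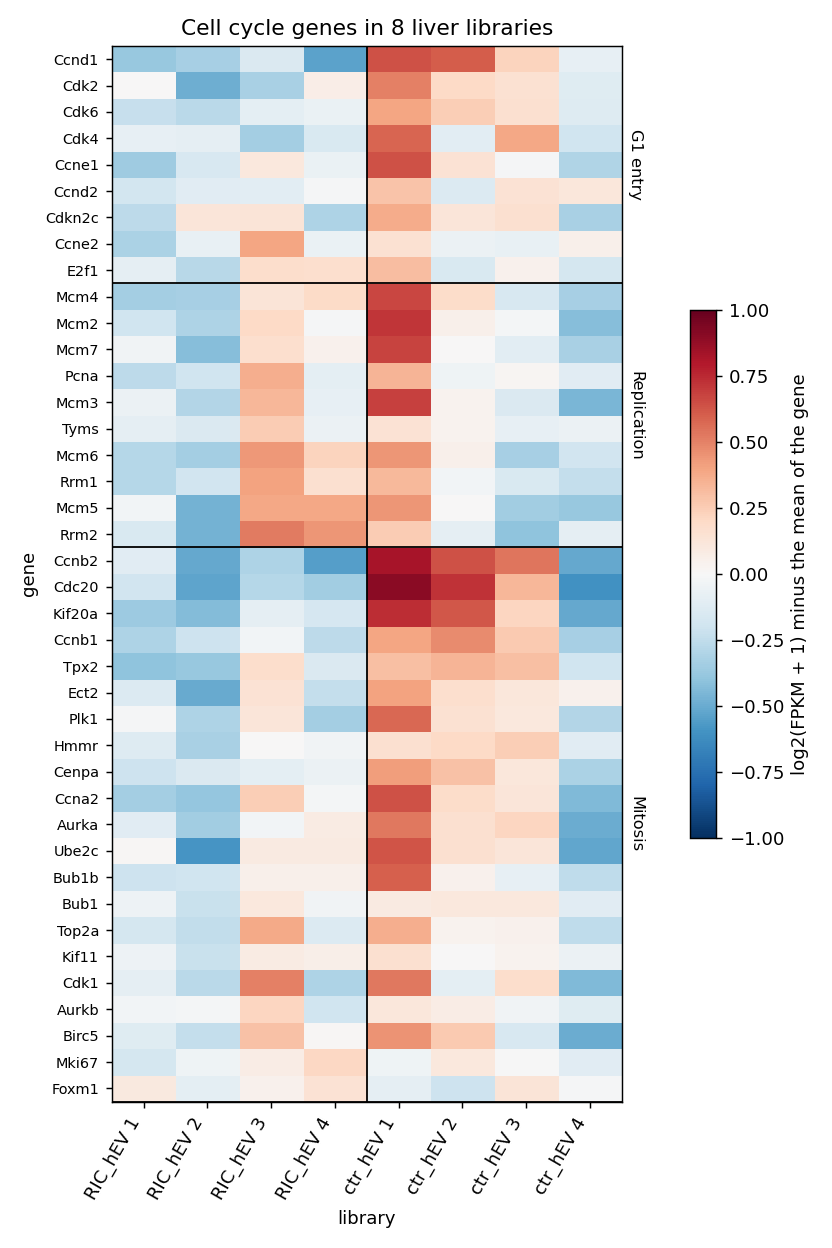
Levels of the 40 cell cycle genes (rows, in 3 role groups and ordered by their change within each) in the 4 RIC_hEV and the 4 ctr_hEV libraries (columns). Colour gives log2(FPKM + 1) minus the mean of the gene over the 8 libraries, without centring of the libraries. The library ctr_hEV 1 is the highest in 27 of the 40 genes, RIC_hEV 3 and RIC_hEV 4 lie above the mean by an average of 0.32 and 0.12 over the replication genes, and ctr_hEV 4 is the lowest library in 10 of 21 mitotic genes.

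The comparison asks whether liver gene expression differs between mice given vesicles after conditioning and mice given sham vesicles. Genes averaging at least 1 FPKM were tested, 11268 in all and 30 of the 40 cell cycle genes, by limma on log2(FPKM + 1) with Benjamini-Hochberg adjustment over all tested genes. None of the 30 passed an adjusted p of 0.05 in either direction, where 0.0177% of all tested genes passed as higher and 0.0177% as lower in RIC_hEV. At an unadjusted p under 0.05, 8 of the 30 were lower in RIC_hEV and 0 were higher, against 11.4% and 2.64% of all tested genes. The lower genes were 26.7% of the 30, and they were 3 genes of G1 entry and 5 mitotic genes. The median tested gene lay 0.11 log2 units lower in RIC_hEV, so log2 changes below are given relative to that median, whereas SE and p belong to the change as fitted. With each library centred on its own median, 3 of the 30 were lower at that level (Ccnd1, Cdk6 and Ccnb2) and 0 higher, against 3.88% and 8.2% of all tested genes. After quantile normalization 3 were lower, against 5.39% of all tested genes as lower and 5.37% as higher. Over all tested genes 297 were higher and 1279 lower at that level as deposited, 924 higher and 437 lower after centring, and 605 higher and 607 lower after quantile normalization.

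None of the genes of G1 entry passed with all 8 libraries, and Ccnd1 had the lowest p of the 40. Of the 8 tested, 6 lay below and 2 above the median tested gene, with a median of -0.16 log2 units against 0 for all tested genes, and 3 were lower at an unadjusted p under 0.05 (37.5%, against 11.4% of all tested genes), 2 of them also after centring. Ccnd1 (cyclin D1, which starts G1 progression in hepatocytes; chr7:144929931-144939925, minus strand, mm10) had 36.2, 37.5, 42.7 and 32.4 FPKM in RIC_hEV 1 to 4, against 74.3, 72.5, 55.55 and 44.8 FPKM in ctr_hEV 1 to 4. Every RIC_hEV library lay below every ctr_hEV library, which held for 4.56% of all tested genes in this direction and 1.31% in the other, and Ccnd1 was the only one of the 40 whose groups did not overlap. It averaged 37.2 ± 4.24 FPKM in RIC_hEV and 61.8 ± 14.15 FPKM in ctr_hEV (SD, n = 4 each). Its relative log2 change was -0.58 (SE 0.16, limma adjusted p = 0.331), and -0.68 without ctr_hEV 4, where it passed (limma adjusted p = 0.0374). With all 8 libraries, centred on their medians, the limma adjusted p was 0.333. Of its 31-base stretches 22.3% also occur in another annotated gene, and its exons are overlapped on the opposite strand by LTO1, so its level is uncertain in part.

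Of the G1 kinases, Cdk6 and Cdk2 had an unadjusted p under 0.05 and Cdk4 did not. Cdk6, a partner of the D-type cyclins, had 2.62, 2.52, 2.96 and 3.04 FPKM in RIC_hEV, against 4.57, 4.02, 3.74 and 2.89 in ctr_hEV. The libraries ctr_hEV 1 to 3 lay above every RIC_hEV library, and ctr_hEV 4 lay among them. Its relative log2 change was -0.22 (SE 0.12, limma adjusted p = 0.354). Cdk2, the partner of cyclins E and A, had 2.10, 1.20, 1.46 and 2.23 FPKM in RIC_hEV, against 3.36, 2.54, 2.43 and 1.84 in ctr_hEV, with the same arrangement of libraries (relative log2 change -0.26, SE 0.16, limma adjusted p = 0.354, and -0.39 with a pseudocount of 0.1). Cdk4, the other kinase of the D-type cyclins, had 11.8, 11.7, 9.66 and 11.2 FPKM in RIC_hEV, against 19.3, 11.6, 16.6 and 10.75 in ctr_hEV. Here ctr_hEV 1 and ctr_hEV 3 stood above the other 6 libraries, and the relative log2 change of -0.22 (SE 0.17, limma adjusted p = 0.388) was 0.015 without those 2 libraries.

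Both the inhibitor and the E2F factor of the group had overlapping values. Cdkn2c, an inhibitor of CDK4 and CDK6, had 3.39, 4.73, 4.76 and 3.25 FPKM in RIC_hEV, against 5.83, 4.73, 4.88 and 3.20 in ctr_hEV, and the groups overlapped. E2f1, a transcription factor of S-phase genes, averaged 2.15 ± 0.466 FPKM in RIC_hEV and 2.18 ± 0.511 in ctr_hEV (SD, n = 4 each). Ccnd2 averaged 1.97 ± 0.145 and 2.44 ± 0.403, and the E-type cyclin Ccne2 averaged 1.35 ± 0.509 and 1.37 ± 0.174, in RIC_hEV and ctr_hEV in that order. Ccne1, the other E-type cyclin, was under the expression limit, at 0.801 ± 0.239 FPKM in RIC_hEV and 1.17 ± 0.617 in ctr_hEV, where ctr_hEV 1 alone reached 2.02.

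The share of each D-type cyclin was also computed, without a test. Ccnd3, the third D-type cyclin, is not among the 40 and was looked at after its values were seen. It had 4.46, 3.85, 1.52 and 4.29 FPKM in RIC_hEV, against 1.53, 1.19, 0.968 and 2.86 in ctr_hEV (relative log2 change 0.88, SE 0.27, limma adjusted p = 0.352). The groups overlapped through RIC_hEV 3 and ctr_hEV 4. Exons of Ccnd3 are overlapped on the opposite strand by Bysl, so the level of Ccnd3 is uncertain in part. Its share of the summed FPKM of the 3 D-type cyclins was 10.5%, 8.9%, 3.28% and 11.0% in RIC_hEV, against 1.95%, 1.57%, 1.64% and 5.72% in ctr_hEV, with RIC_hEV 3 below ctr_hEV 4, while Ccnd1 held 83.4% to 92.5% in RIC_hEV and 89.4% to 95.9% in ctr_hEV. The sum itself was 38.9 to 46.15 FPKM in RIC_hEV and 50.1 to 78.7 in ctr_hEV, so cyclin D1 was the main D-type cyclin transcript in all 8 libraries.

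**Figure D2:**
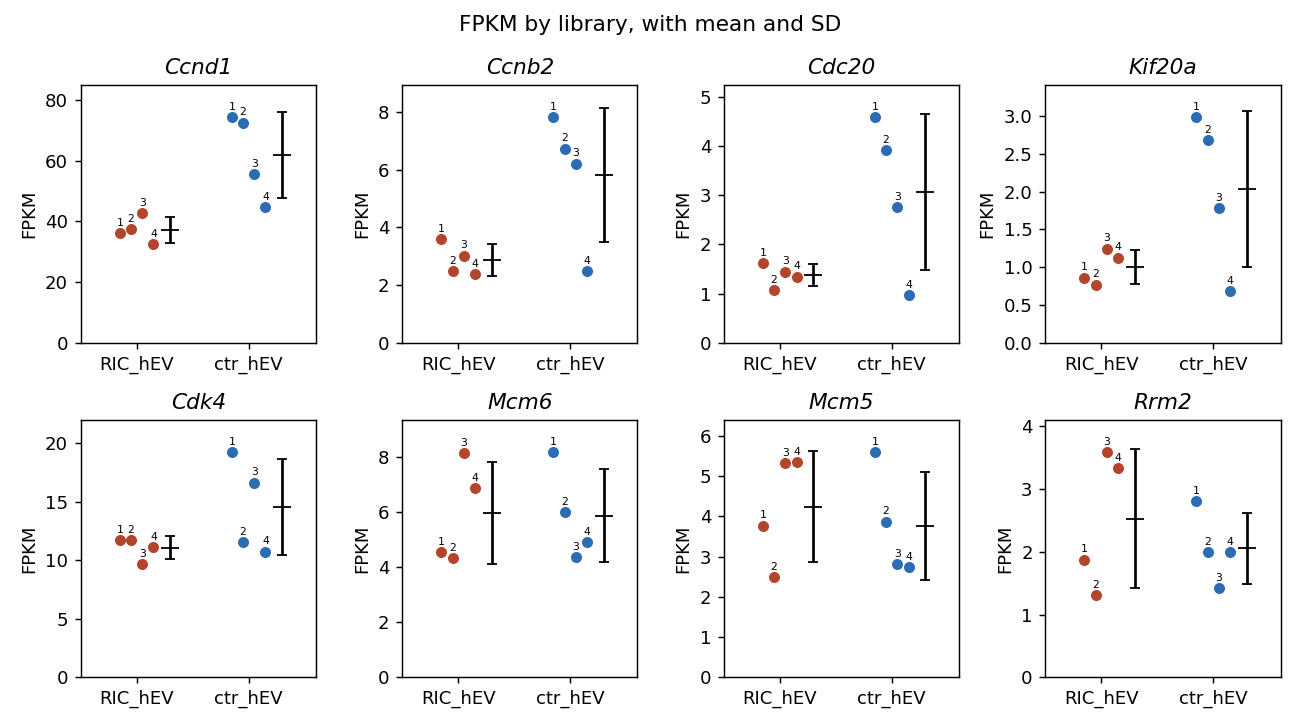
FPKM of 8 cell cycle genes in each library (points, numbered by replicate), with the mean and SD of each group beside them, RIC_hEV left of ctr_hEV. For Ccnd1 the groups do not overlap; for Ccnb2, Cdc20 and Kif20a the library ctr_hEV 4 lies with the RIC_hEV libraries, and for Mcm6, Mcm5 and Rrm2 the groups overlap fully.

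Replication genes gave no call in either direction. All 10 were tested, 0 had an unadjusted p under 0.05, and 7 lay above and 3 below the median tested gene, with a median of 0.074 log2 units in place of 0. That median was -0.036 without RIC_hEV 3, -0.0017 without ctr_hEV 3 and -0.012 with no filter on low values, so it has no stable direction. Mcm6, a subunit of the ring-shaped MCM helicase that unwinds DNA at replication forks (chr1:128331590-128359664, minus strand), had 4.55, 4.32, 8.12 and 6.86 FPKM in RIC_hEV, against 8.17, 5.99, 4.36 and 4.91 in ctr_hEV. The high libraries were RIC_hEV 3, RIC_hEV 4 and ctr_hEV 1, and the groups overlapped fully. It averaged 5.96 ± 1.84 FPKM in RIC_hEV and 5.86 ± 1.68 in ctr_hEV (SD, n = 4 each), a relative log2 change of 0.13 (SE 0.21, limma adjusted p = 0.974).

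In the other MCM subunits ctr_hEV 1 was likewise the highest library. Mcm5 had 3.77, 2.49, 5.32 and 5.34 FPKM in RIC_hEV, against 5.59, 3.87, 2.81 and 2.73 in ctr_hEV (relative log2 change 0.25, SE 0.23, limma adjusted p = 0.761). Mcm7 had 3.95, 2.79, 4.71 and 4.23 FPKM in RIC_hEV, against 7.10, 4.10, 3.72 and 3.06 in ctr_hEV, and 33.4% of its 31-base stretches also occur in another annotated gene. Mcm4 had 2.13, 2.15, 3.35 and 3.525 FPKM in RIC_hEV, against 5.30, 3.52, 2.55 and 2.16 in ctr_hEV. Mcm2 had 1.73, 1.54, 2.61 and 2.105 FPKM in RIC_hEV, against 4.135, 2.25, 2.10 and 1.33 in ctr_hEV. The groups overlapped in all of them. The summed FPKM of the 6 subunits was 19.2, 15.8, 28.5 and 25.1 in RIC_hEV, against 36.1, 23.1, 18.4 and 16.3 in ctr_hEV. The relative log2 changes of the 6 ran between -0.068 and 0.25.

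Genes that supply or clamp the polymerase also had overlapping groups. Pcna, the sliding clamp, had 17.8, 18.6, 28.0 and 20.1 FPKM in RIC_hEV, against 27.5, 20.9, 21.8 and 19.8 in ctr_hEV (relative log2 change 0.014, SE 0.16, limma adjusted p = 0.754). Rrm2, the regulated subunit of ribonucleotide reductase, had 1.88, 1.31, 3.59 and 3.34 FPKM in RIC_hEV, against 2.81, 1.998, 1.425 and 1.998 in ctr_hEV. Its relative log2 change was 0.28 (SE 0.22, limma adjusted p = 0.702), with overlapping groups. Its partner subunit Rrm1 averaged 2.65 ± 0.819 and 2.52 ± 0.636 FPKM, and thymidylate synthase Tyms averaged 1.29 ± 0.304 and 1.31 ± 0.165 FPKM, in RIC_hEV and ctr_hEV in that order.

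None of the mitotic genes passed with all 8 libraries, and those with an unadjusted p under 0.05 were Ccnb2, Cdc20, Ccnb1, Kif20a and Ect2. Of the 12 tested, 9 lay below and 3 above the median tested gene, with a median of -0.14 log2 units, and 5 were lower at that level (41.7%, against 11.4% of all tested genes). After centring 1 was, Ccnb2, against 3.88%. The median was -0.25 with a pseudocount of 0.1, -0.050 without ctr_hEV 1 and -0.026 without ctr_hEV 1 and ctr_hEV 3. Ccnb2 (cyclin B2, an activator of CDK1 at entry into mitosis; chr9:70407692-70421547, minus strand) had 3.603, 2.48, 3.02 and 2.39 FPKM in RIC_hEV, against 7.83, 6.74, 6.22 and 2.50 in ctr_hEV. The libraries ctr_hEV 1 to 3 lay above all 4 RIC_hEV libraries, and ctr_hEV 4 lay within their range. It averaged 2.88 ± 0.560 FPKM in RIC_hEV and 5.82 ± 2.31 in ctr_hEV (SD, n = 4 each). Its relative log2 change was -0.63 (SE 0.25, limma adjusted p = 0.352).

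Cdc20, the activator of the anaphase-promoting complex (chr4:118432901-118437352, minus strand), had 1.615, 1.075, 1.45 and 1.34 FPKM in RIC_hEV, against 4.585, 3.91, 2.76 and 0.961 in ctr_hEV. As for Ccnb2, ctr_hEV 1 to 3 lay above every RIC_hEV library, and ctr_hEV 4 was the lowest of all 8 libraries. Its relative log2 change was -0.57 (SE 0.27, limma adjusted p = 0.354). Kif20a, a kinesin needed for cytokinesis and named here after its values were seen, had 0.862, 0.768, 1.24 and 1.13 FPKM in RIC_hEV, against 2.98, 2.68, 1.78 and 0.683 in ctr_hEV (relative log2 change -0.42, SE 0.24, limma adjusted p = 0.356). Ccnb1, cyclin B1, had 0.637, 0.754, 0.993 and 0.687 FPKM in RIC_hEV, against 1.67, 1.82, 1.43 and 0.608 in ctr_hEV (relative log2 change -0.29, SE 0.17, limma adjusted p = 0.354). Of the 31-base stretches of Cdc20, Kif20a and Ccnb1, 26.7%, 26.7% and 27.8% also occur in another annotated gene, and exons of Cdc20 and Kif20a are overlapped on the opposite strand by Elovl1 and Cdc23, so these levels are uncertain. Ccnb2 shares no such stretch. Ect2, which starts the contractile ring, had 1.145, 0.666, 1.601 and 1.004 FPKM in RIC_hEV, against 2.12, 1.66, 1.55 and 1.43 in ctr_hEV (relative log2 change -0.25, SE 0.14, limma adjusted p = 0.354). With a pseudocount of 0.1 the relative log2 changes of Kif20a, Ccnb1 and Ect2 were -0.66, -0.56 and -0.48, and none passed.

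The other tested mitotic genes had an unadjusted p above 0.05. Cdk1, the kinase that the B-type cyclins activate, given by library after its values were seen, had 1.33, 1.05, 2.52 and 1.002 FPKM in RIC_hEV, against 2.57, 1.31, 1.79 and 0.825 in ctr_hEV (relative log2 change 0.029, SE 0.23, limma adjusted p = 0.867). Cyclin A2 (Ccna2), which acts in S phase and G2, had 1.09, 1.02, 2.14 and 1.61 FPKM in RIC_hEV, against 3.105, 2.002, 1.87 and 0.948 in ctr_hEV (relative log2 change -0.14, SE 0.22, limma adjusted p = 0.563). Ube2c, an ubiquitin-conjugating enzyme of anaphase, had 1.86, 0.880, 2.02 and 2.01 FPKM in RIC_hEV, against 3.39, 2.17, 2.085 and 0.979 in ctr_hEV (relative log2 change -0.089, SE 0.23, limma adjusted p = 0.662). In all 3 the highest RIC_hEV library was RIC_hEV 3 and the groups overlapped. For Ube2c, 25.3% of its 31-base stretches also occur in another annotated gene, and Tnnc2 overlaps its exons on the opposite strand. The DNA topoisomerase Top2a (0.9965 ± 0.429 FPKM in RIC_hEV, 1.12 ± 0.370 in ctr_hEV), the survival and spindle protein Birc5 (1.35 ± 0.383 and 1.45 ± 0.695), Aurka, a kinase of the spindle poles (1.23 ± 0.277 and 1.64 ± 0.720), and the centromeric histone Cenpa (1.01 ± 0.0894 and 1.44 ± 0.509) had relative log2 changes from -0.14 to 0.081.

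The 9 mitotic genes under 1 FPKM, together with Ccne1, were read in a fit of the 17875 genes averaging at least 0.1 FPKM. None of these 10 passed there (0.0168% of all genes passed as lower and 0.0168% as higher in limma), and 2 of them, Tpx2 and Hmmr, had an unadjusted p under 0.05, both lower, against 9.83% of genes in that fit as lower and 2.32% as higher. Tpx2, a spindle assembly factor, averaged 0.649 ± 0.320 FPKM in RIC_hEV and 1.14 ± 0.347 in ctr_hEV, and the spindle protein Hmmr averaged 0.309 ± 0.1296 and 0.553 ± 0.167 (SD, n = 4 each). Mki67, the usual marker of dividing cells, also given by library after its values were seen, was at 0.116, 0.223, 0.331 and 0.455 FPKM in RIC_hEV, against 0.222, 0.355, 0.261 and 0.164 in ctr_hEV, with overlapping groups. Foxm1, a transcription factor of G2 genes, averaged 0.435 ± 0.103 FPKM in RIC_hEV and 0.349 ± 0.132 in ctr_hEV. The kinase Plk1 lay at 0.537 to 1.117 FPKM in RIC_hEV and 0.582 to 1.89 in ctr_hEV. The kinases Aurkb (0.556 ± 0.188 and 0.570 ± 0.117), Bub1 (0.153 ± 0.108 and 0.232 ± 0.0875) and Bub1b (0.788 ± 0.179 and 1.035 ± 0.563), and the spindle motor Kif11 (0.302 ± 0.124 and 0.361 ± 0.0879), given as RIC_hEV and then ctr_hEV in FPKM, complete the group. Values of Kif11, Mki67, Hmmr, Plk1, Aurkb and Bub1 in the lowest library rest on an estimated 30 fragments or fewer.

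**Figure D3:**
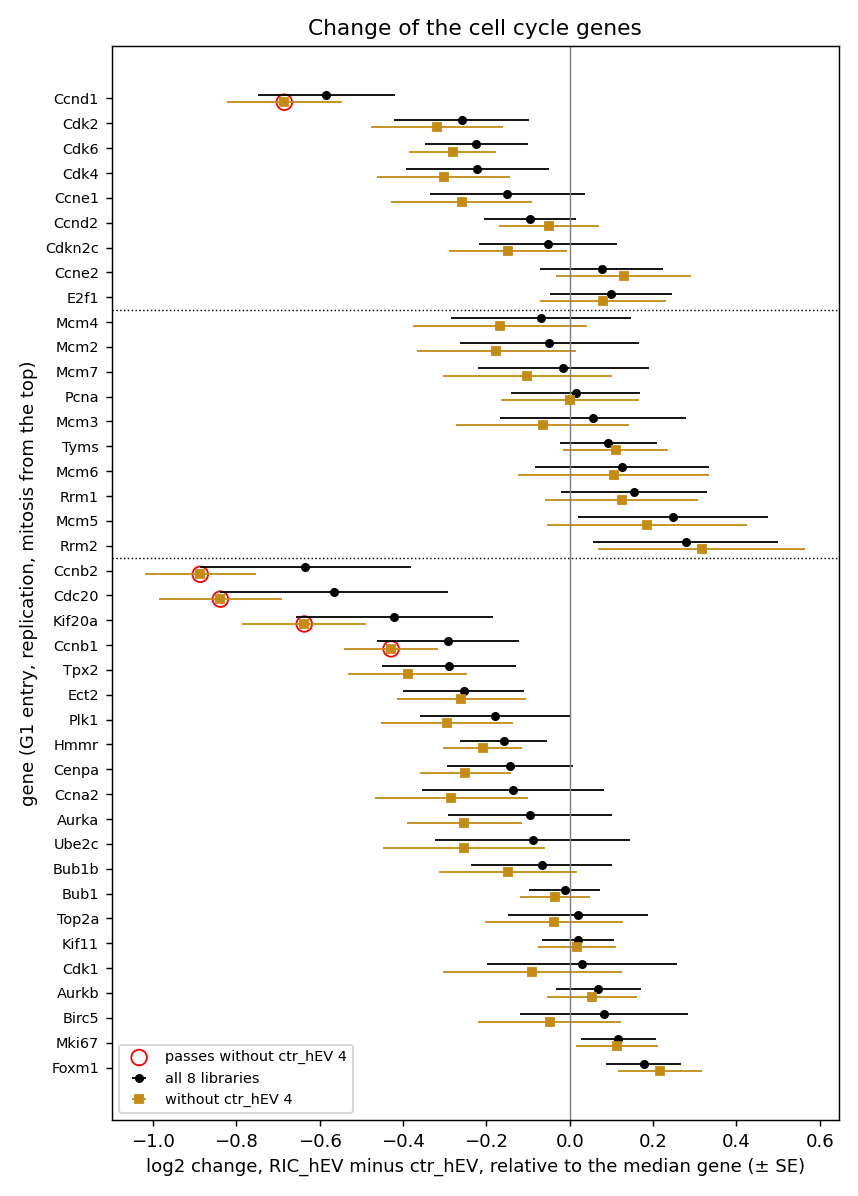
Log2 change of each of the 40 genes, RIC_hEV minus ctr_hEV, relative to the median gene of its fit, with SE bars (x axis), from all 8 libraries (black circles) and without ctr_hEV 4 (ochre squares); genes run down the page by role, and those averaging under 1 FPKM come from the fit with the lower limit. Red rings mark the 5 genes that pass without ctr_hEV 4, in libraries that were not centred (Ccnd1, Ccnb2, Cdc20, Kif20a and Ccnb1). Replication genes lie around 0 in both.

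A single library, ctr_hEV 4, decided whether any of these genes passed. It was below the other 3 ctr_hEV libraries in 20 of 21 mitotic genes, 7 of 10 replication genes and 7 of 9 genes of G1 entry, and in all 21 mitotic genes it did not exceed the highest RIC_hEV library. These ranks use FPKM not centred by library, and their share over all genes was not counted. Alb was highest in ctr_hEV 4 (28050 FPKM) and lowest in ctr_hEV 1 (16910 FPKM), and its part in the ranks was not tested. With ctr_hEV 4 left out, 5 of the 30 tested genes passed as lower in RIC_hEV, which are Ccnd1 and the mitotic genes Ccnb2, Cdc20, Kif20a and Ccnb1, against 1.22% of all tested genes as lower and 0.364% as higher. Their limma adjusted p values were 0.0374, 0.0147, 0.0275, 0.0434 and 0.0437 in that order of genes, and their relative log2 changes -0.68, -0.89, -0.84, -0.64 and -0.43. That fit used FPKM not centred by library, and its median tested gene had a fitted log2 change of -0.15. Leaving out ctr_hEV 4 was not combined with centring, so whether these genes pass after centring was not tested. No gene of the 40 passed with any of the other 7 libraries left out. The libraries ctr_hEV 1 to 3 all lay above every RIC_hEV library in 7 of 12 tested mitotic genes, 3 of 8 genes of G1 entry and 0 of 10 replication genes, against 21.6% of all tested genes. This count was made after ctr_hEV 4 was seen to stand apart, and leaving out that library had to raise it.

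In the balance between mitotic and replication transcripts, ctr_hEV 4 again lay apart from the other ctr_hEV libraries. Summed over the 21 mitotic genes and divided by the sum over the 6 Mcm genes, FPKM gave ratios of 1.04, 0.965, 0.939 and 0.816 in RIC_hEV, against 1.22, 1.49, 1.66 and 0.931 in ctr_hEV. The libraries ctr_hEV 1 to 3 lay above all RIC_hEV libraries and ctr_hEV 4 among them. The ratio of Ccnb2 to Cdk1, a cyclin and its kinase, was 2.71, 2.36, 1.20 and 2.38 in RIC_hEV, against 3.04, 5.14, 3.46 and 3.03 in ctr_hEV. Here all 4 ctr_hEV libraries were above every RIC_hEV library. Both ratios were formed after the values were seen and were not tested.

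**Figure D4:**
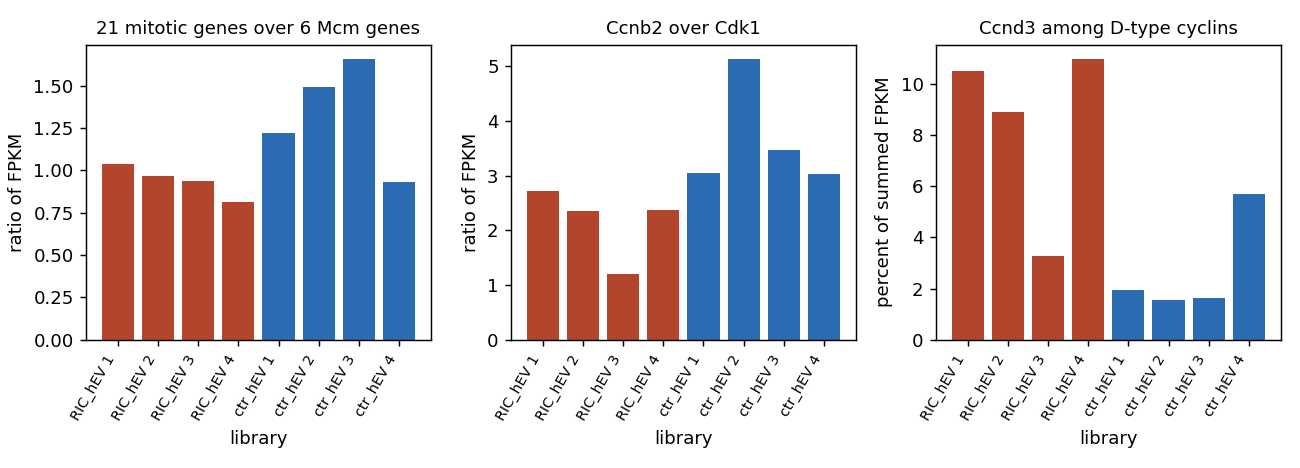
Per-library ratio of summed FPKM of 21 mitotic genes to that of 6 Mcm genes (left), ratio of Ccnb2 to Cdk1 FPKM (middle), and percent of the summed FPKM of Ccnd1, Ccnd2 and Ccnd3 that is Ccnd3 (right), with RIC_hEV in red left of ctr_hEV in blue. In the left panel ctr_hEV 1 to 3 (1.22 to 1.66) lie above every RIC_hEV library (0.816 to 1.04) and ctr_hEV 4 does not; in the middle panel the groups do not overlap.

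In sum, neutrophil markers set ctr_hEV 1 to 3 above every RIC_hEV library. Ccnb2 had this arrangement, as did 21.6% of all tested genes. The 6 markers summed to 6.73, 15.2, 9.85 and 6.28 FPKM in RIC_hEV, against 29.5, 28.5, 62.8 and 12.4 in ctr_hEV, so that ctr_hEV 1 to 3 were above every RIC_hEV library and ctr_hEV 4 within their range. The sum was carried by S100a8, S100a9 and Retnlg. Mpo and Elane, which are made by dividing granulocyte precursors, did not have it and reached at most 0.146 and 0.193 FPKM in any library. Ly6g was at 0 in 5 of 8 libraries, which were all RIC_hEV libraries and ctr_hEV 4. In ctr_hEV 1 to 3 it had 0.082, 0.078 and 0.183 FPKM, so it had this arrangement at very low values. The part of these cells in the levels of Ccnb2, Cdc20, Kif20a and Ccnb1 was not tested.

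Another 140 genes of the cycle were listed by role. Of these, 139 were in the table and 72 were tested; 0 passed in either direction, and 9 were lower and 2 higher at an unadjusted p under 0.05 (limma), a share of lower genes of 12.5% against 11.4% of all tested genes. With each library centred on its own median 2 were lower and 3 higher, against 3.88% and 8.2% of all tested genes. Of the 21 tested genes of G1 entry 6 were lower, of 30 replication genes 1 (Orc2, a subunit of the origin recognition complex) and of 21 mitotic genes 2 (9.52%); after centring these counts were 0, 1 and 1. The median relative log2 changes of the 3 groups were -0.089, -0.022 and -0.028. The libraries ctr_hEV 1 to 3 all lay above every RIC_hEV library in 7 of the 21 genes of G1 entry, 5 of the 30 replication genes and 7 of the 21 mitotic genes. Over all tested genes this share was 21.6%. With all 8 libraries, E2f5, an E2F factor that acts mainly as a repressor, was the only gene of the 72 whose groups did not overlap. Over all tested genes this held for 4.56% as lower and 1.31% as higher. E2f5 had 2.70, 2.74, 2.84 and 2.33 FPKM in RIC_hEV, against 3.47, 3.77, 3.38 and 3.36 in ctr_hEV (relative log2 change -0.19, SE 0.093, limma adjusted p = 0.331). Its exons are overlapped on the opposite strand by 1810022K09Rik.

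Cdca3, a trigger of mitotic entry named here after its values were seen, had 1.70, 1.61, 1.58 and 1.47 FPKM in RIC_hEV, against 3.99, 4.075, 3.497 and 1.38 in ctr_hEV. As for Ccnb2, ctr_hEV 1 to 3 lay above every RIC_hEV library. It passed without ctr_hEV 4 (limma adjusted p = 0.0125, libraries not centred), as the only one of the 72, against 1.22% of all tested genes as lower. Ckap2, a spindle protein, averaged 0.915 ± 0.300 FPKM in RIC_hEV and 1.93 ± 1.02 in ctr_hEV. Of the CDK inhibitors, Cdkn1b averaged 5.997 ± 0.723 FPKM in RIC_hEV and 7.44 ± 0.553 in ctr_hEV (relative log2 change -0.16, limma adjusted p = 0.354), and Cdkn1a, a target of p53 also named after its values were seen, had 19.9, 9.92, 18.7 and 21.2 FPKM in RIC_hEV, against 23.1, 17.1, 26.9 and 12.6 in ctr_hEV, with overlapping groups. Ccnf, an F-box cyclin that restrains centrosome duplication, was higher without passing, at 1.502 ± 0.272 FPKM in RIC_hEV and 1.05 ± 0.171 in ctr_hEV (relative log2 change 0.40, limma adjusted p = 0.354).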

How the data were processed

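Bulk liver RNA was measured in 8 libraries, 4 RIC_hEV and 4 ctr_hEV, grouped and numbered by their titles. Total RNA was extracted with Trizol and libraries were made with a VAHTS universal kit, per the labels' protocols. Tools listed in the submitters' processing notes are FastQC 0.11.9, Trimmomatic 0.38, HISAT2 2.2.1, HTSeq 0.13.5, R 3.4.1, DESeq2 1.18.1 and the build mm10, without their roles. The deposited values are FPKM made by the authors, 1 column per library; neither the labels nor the file states the annotation, the gene lengths or the strand setting. Reads of genes that overlap on opposite strands therefore cannot be told apart, which touches exons of 12 of the 40 genes. They are Ccnd1, Ccnd2, Ccne2, Cdk2, Cdk4, Cdk6, Mcm7, Ccna2, Cdc20, Plk1, Kif20a and Ube2c.

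The table held 55335 rows; 3225 without a gene name (0.176% to 0.207% of the FPKM of a library) were left out, and of 80 symbols on several rows the row with the highest mean was kept. Total FPKM was 389616 to 430326 per library. Read counts were not used here. Depth was estimated from the most common product of FPKM and exon length (GENCODE M21) among low genes, read as 1 fragment, so fragments per gene are approximate. RIC_hEV was compared with ctr_hEV by limma 3.58.1 (R 4.3.3, mean-variance trend, two-sided) on log2(FPKM + 1) for genes with a mean of at least 1 FPKM, adjusted over all tested genes, threshold 0.05; a second fit used a mean of at least 0.1 FPKM. This scale understates the change of low genes. The fitting code was tested on simulated data. Shares of 31-base stretches count those that occur in another gene's transcripts on either strand. Summaries used Python 3.11.15 with pandas 2.3.3 and NumPy 2.4.6.

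The 40 genes and all lists were chosen with earlier results of these data known. Values by library are given for the 4 genes of each role with the highest mean, the 4 with the lowest p, and any whose groups do not overlap; Kif20a, Cdk1, Mki67, Cdkn1a, Ccnd3 and Cdca3 were added after their values were seen. Alternatives were another pseudocount, filter or scaling, a block on the replicate number, each library left out in turn, and ctr_hEV 1 and ctr_hEV 3 left out together.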

Additional observations from a re-analysis of the deposited data

Results flagged for a closer look

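In 80 sets of 4 libraries (40 genes in each of RIC_hEV and ctr_hEV), 3 had a library that stood far from the other 3, by a gap of more than 0.829 of the range of the set; chance alone gives about 1 in 20. Ube2c was at 0.880 FPKM in RIC_hEV 2, against 1.86 to 2.02 FPKM in the other RIC_hEV libraries. Tpx2 was at 0.618 FPKM in ctr_hEV 4, against 1.29 to 1.35 FPKM in the other ctr_hEV libraries. Bub1 was at 0.102 FPKM in ctr_hEV 4, against 0.267 to 0.281 FPKM in the other ctr_hEV libraries.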

How the results depend on the processing

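The count of cell cycle genes that passed (0) was the same under every alternative run, except without ctr_hEV 4, and ranged from 0 to 5 as lower and from 0 to 0 as higher with single libraries left out; for the other genes of the cycle it ranged from 0 to 1, and for the genes under 1 FPKM it stayed at 0. The count lower at an unadjusted p under 0.05 (8) was 3 with libraries centred on their medians, 3 with quantile normalization, 6 with a pseudocount of 0.1, 5 with no filter, 1 without ctr_hEV 1 and ctr_hEV 3 together, and 2 to 12 with single libraries left out (2 without ctr_hEV 1 or RIC_hEV 2, 4 without ctr_hEV 3 or RIC_hEV 4, 5 without ctr_hEV 2 or RIC_hEV 3). Over all genes, 2 higher and 2 lower passed; with single libraries left out these counts ranged from 0 to 41 and from 1 to 137, both highest without ctr_hEV 4. They were 4 and 4 without ctr_hEV 1 and ctr_hEV 3 together, and 0 higher with no filter.

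The numbers 1 to 4 occur in both groups, but same-numbered libraries did not deviate together (correlations of 0.0525, 0.12, -0.00857 and -0.227 for numbers 1 to 4). No RIC_hEV library correlated best with its own number. The labels do not say what the numbers stand for, and 4 libraries per group are too few to tell. With a replicate block, 1 gene passed as higher and 2 as lower, and 0 of the cell cycle genes.

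The median relative log2 change of the genes of G1 entry (-0.16) was -0.024 without ctr_hEV 1 and ctr_hEV 3 together and -0.21 to -0.10 with single libraries left out. Those of the replication and mitotic genes ranged from -0.036 to 0.19 and from -0.26 to -0.050. Without ctr_hEV 1 and ctr_hEV 3 together the sign turned for Ccna2 (0.034), Cdk4 (0.015), Cdkn2c (0.050), Mcm2 (0.14), Mcm4 (0.012), Mcm7 (0.12) and Ube2c (0.11). It turned for Mcm7 (0.017) and Pcna (-0.042) with quantile normalization, and for Pcna also with a limit of 0.1 FPKM (-0.0094) and no filter (-0.072). With single libraries left out, the sign turned within the ranges of Cdkn2c (-0.15 to 0.041), Mcm2 (-0.18 to 0.12), Mcm4 (-0.17 to 0.080), Mcm6 (-0.013 to 0.24), Mcm7 (-0.10 to 0.14), Pcna (-0.12 to 0.068) and Ube2c (-0.25 to 0.071). With a pseudocount of 0.1 no call or direction turned, but the mitotic median (-0.14) was -0.25, and values moved by over 1.5 times for Ccnb1 (-0.56), Ect2 (-0.48), Kif20a (-0.66), Cdk2 (-0.39), Ccna2 (-0.22), Ube2c (-0.15) and Pcna (0.035). Ccnb2 had the lowest relative change of the named genes with all 8 libraries, but Cdc20 (-0.78, Ccnb2 -0.76) had it with a pseudocount of 0.1, and Ccnd1 had it with quantile normalization (-0.69, Ccnb2 -0.60), without ctr_hEV 1 (-0.531, Ccnb2 -0.527), ctr_hEV 3 (-0.64, Ccnb2 -0.59) or RIC_hEV 2 (-0.594, Ccnb2 -0.590), and without ctr_hEV 1 and ctr_hEV 3 together (-0.58, Ccnb2 -0.41). The mitotic median was -0.026 without ctr_hEV 1 and ctr_hEV 3 together. The cause of these shifts was not tested. At the estimated depths, the cell cycle genes under 1 FPKM rest on 1 (Bub1) to 55 (Bub1b) fragments in their lowest library. In their highest library they rest on 35 (Bub1) to 218 (Bub1b). Differences among them may have been missed, and the smallest detectable difference was not computed.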
